A study of Rattus norvegicus with 8 samples.

Results

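Potassium channels, calcium channels and calcium pumps were examined in rat aortic smooth muscle cells given siRNA against the long non-coding RNA Giver and then treated with angiotensin II (Ang II). The members are all genes whose annotated symbol names a potassium channel subunit (Kcn), a voltage-gated calcium channel subunit (Cacn), a TRPC, TRPV or TRPM channel, an inositol trisphosphate or ryanodine receptor (Itpr, Ryr), a calcium pump (Atp2a, Atp2b), or Orai or Stim. Of 133 such genes with a probe set, 78 had a mean above the filter value of 4.81 log2 and were tested among 11377 genes, and the other 55 lay below it. The pattern also takes in Trpc4ap, which encodes a TRPC4-associated protein and not a channel.

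The cells were isolated from thoracic aortas of Sprague-Dawley rats, all male, and were grown for 2 passages in medium with 10% serum. All groups received siRNA for 48 h, either non-targeting control siRNA (siNTC) or Giver siRNA (siGiver), followed by 3 h of either 100 nM Ang II or phosphate-buffered saline (PBS). This gave 4 groups (siNTC PBS, siNTC Ang II, siGiver PBS and siGiver Ang II), with 2 Affymetrix arrays each. Whether both arrays of a group are separate cultures, and how many siRNA sequences were used, is not stated in the labels. The p-values therefore rest on the spread between these arrays alone, and that spread may be technical. No probe set carries the symbol Giver, and the knockdown itself was not analysed here.

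In smooth muscle, Ang II acts through a Gq-coupled receptor and phospholipase C, whose product inositol trisphosphate opens release channels in the sarcoplasmic reticulum. Calcium also enters through L-type voltage-gated channels, receptor-operated TRPC channels and the STIM-ORAI pathway, which opens when the store empties. Pumps of the sarcoplasmic reticulum (SERCA) and plasma membrane (PMCA) remove calcium again, and potassium channels set the membrane potential that limits voltage-gated entry.

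The largest rises with Ang II in siGiver cells among members called were those of Kcnn4, Trpc6 and the pump gene Atp2b1. They rose by 2.05-fold, 1.66-fold and 1.48-fold, more than in siNTC cells by the test of the difference. For Trpc6 and Atp2b1 that result was lost in 1 or more leave-one-out fits. Without Ang II, 6 of 11 TRP symbols were lower in siGiver than in siNTC cells, led by Trpc6 (-0.75), against 19.1% of all genes. Another 2 were higher, led by Trpc2 (0.60), against 16.0% of all genes. The calls of Trpm4, Trpv5 and Trpc4ap were each lost in 1 or more leave-one-out fits. Of the 8 members that rose with Ang II in siGiver cells, 6 were also called lower in siGiver cells in PBS. Both comparisons use the siGiver PBS arrays, so a low value there enters both. The share of all genes with both calls is not given here, so the overlap is not shown to be particular to the members. With Ang II, the calcium pump genes Atp2b1, Atp2a2 and Atp2b4 and the L-type channel gene Cacna1c were higher in siGiver cells, as were 19.5% of all genes. The Atp2b4 difference of 0.29 log2 shrank to 0.16 without siGiver Ang II replicate 1. With the mean of its probe sets Atp2a2 read 0.14 and did not pass, and a second Cacna1c probe set read -0.10.

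Levels are deposited log2 values after RMA. They can be set side by side across arrays for the same probe set, but the levels of different genes cannot be compared. Differences are on the log2 scale with the standard error (SE) of a limma fit to all 8 arrays, and a member was called at a Benjamini-Hochberg adjusted p under 0.05 over the 11377 genes. Ang II in siNTC cells changed 4 of 78 members (5.13%), against 6.14% of all genes, 3 higher and 1 lower (3.96% and 2.17% of all genes). Ang II in siGiver cells changed 14 (17.9%), against 16.3% of all genes, 8 higher and 6 lower (9.11% and 7.17%). In PBS, 22 (28.2%) differed between siGiver and siNTC cells, against 35.0% of all genes, 9 higher and 13 lower in siGiver cells (16.0% and 19.1%). With Ang II, 17 (21.8%) differed between the siRNAs, against 44.3% of all genes, 11 higher and 6 lower (19.5% and 24.8%). For the interaction, which is the change with Ang II under siGiver less the change under siNTC, 5 passed (6.41%), against 6.21% of all genes, 3 positive and 2 negative (3.35% and 2.87% of all genes). In all, 33 members passed in 1 or more comparisons and 45 in none. The share of all genes passing in none is not given here. These counts, and those by class below, therefore do not show whether the members differ from other genes.

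The members were dim as a group, with 57 of 78 in the lowest tertile of brightness of all genes tested. In that tertile 17.5% of members differed between siRNAs in PBS, against 21.4% of genes, and 10.5% with Ang II, against 26.1%. In the middle tertile, which holds 14 members, 64.3% differed between siRNAs in PBS, against 40.8% of genes, and 7 of the 14 with Ang II, against 52.3%. In the highest tertile, which holds 7, the shares were 42.9% of members and 42.9% of genes in PBS. With Ang II in siGiver cells, the shares of members and genes were 10.5% and 10.9% in the lowest tertile, 35.7% and 19.5% in the middle and 42.9% and 18.5% in the highest. None of these differences in share was tested.

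**Figure D1:**
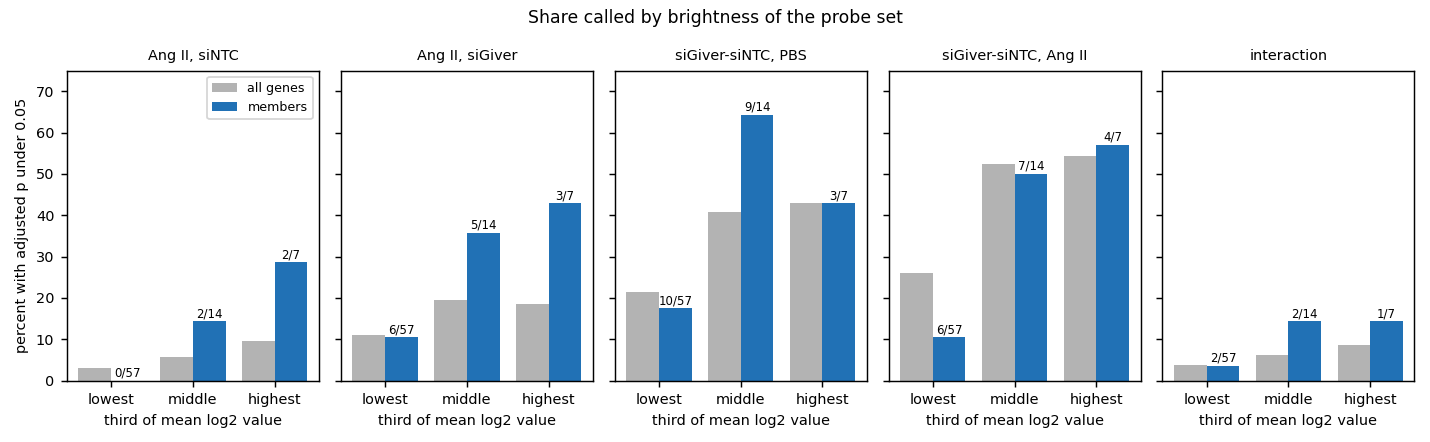
Percent of genes (grey) and of members (blue) with adjusted p under 0.05 in each tertile of mean log2 value, for the 5 comparisons. The fractions give members called over members tested, and the lowest tertile holds 57 of the 78 members with 10 called in PBS.

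The cell type on the labels was checked against marker lists. All 9 smooth muscle markers were measured above the filter, with Tagln at 14.1 log2, while 7 of 7 endothelial and 4 of 4 adipocyte markers lay below it, the brightest being Kdr at 4.40 and Lep at 4.56. Fibroblast markers were all above the filter (8 of 8), 4 of 8 macrophage markers were, Cd14 the brightest at 8.37, and of 7 neuron markers Stmn2 (11.3) and Tubb3 (6.78) were, as were 3 of 6 markers of skeletal and cardiac muscle. The log2 sum of the smooth muscle list was 14.80 and 14.85 on the siNTC PBS arrays, 14.77 and 14.78 with siNTC and Ang II, 14.96 and 14.97 on siGiver PBS arrays and 15.02 and 15.03 with siGiver and Ang II. It was thus higher on every siGiver array, and 7 of the 9 markers were called higher and 1 lower there in each treatment. Of all genes, 16.0% were higher and 19.1% lower in PBS, and 19.5% and 24.8% with Ang II. The fibroblast sum ran from 13.38 to 13.40 in siNTC Ang II arrays, the lowest group, and from 13.71 to 13.73 in siGiver PBS arrays, the highest. Of the 8 fibroblast markers, 4 fell with Ang II in siNTC cells (2.17% of all genes) and 1 in siGiver cells (7.17%). In siGiver against siNTC cells, 1 was higher in PBS (16.0%) and 4 with Ang II (19.5%). None went the other way. The macrophage sum was lowest in siGiver Ang II arrays (8.76 and 8.80) and highest in siNTC Ang II arrays (9.09 and 9.14), and the neuron sum ran from 11.23 to 11.24 in siNTC Ang II arrays and from 11.50 to 11.55 in siGiver PBS arrays. The part of these shifts in the results below was not tested, and in such bulk samples fewer cells of a type and less RNA per cell cannot be told apart. The gap between the 3′ and 5′ control probe sets, a sign of RNA quality, ran from -0.155 to -0.0552 log2 for GAPDH and from 0.231 to 0.2997 for beta-actin over the 8 arrays. For hexokinase it ran from 0.19 to 0.73, with siGiver Ang II replicate 2 highest (0.73) and its partner at 0.32; the part of this in the results was not tested.

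**Figure D2:**
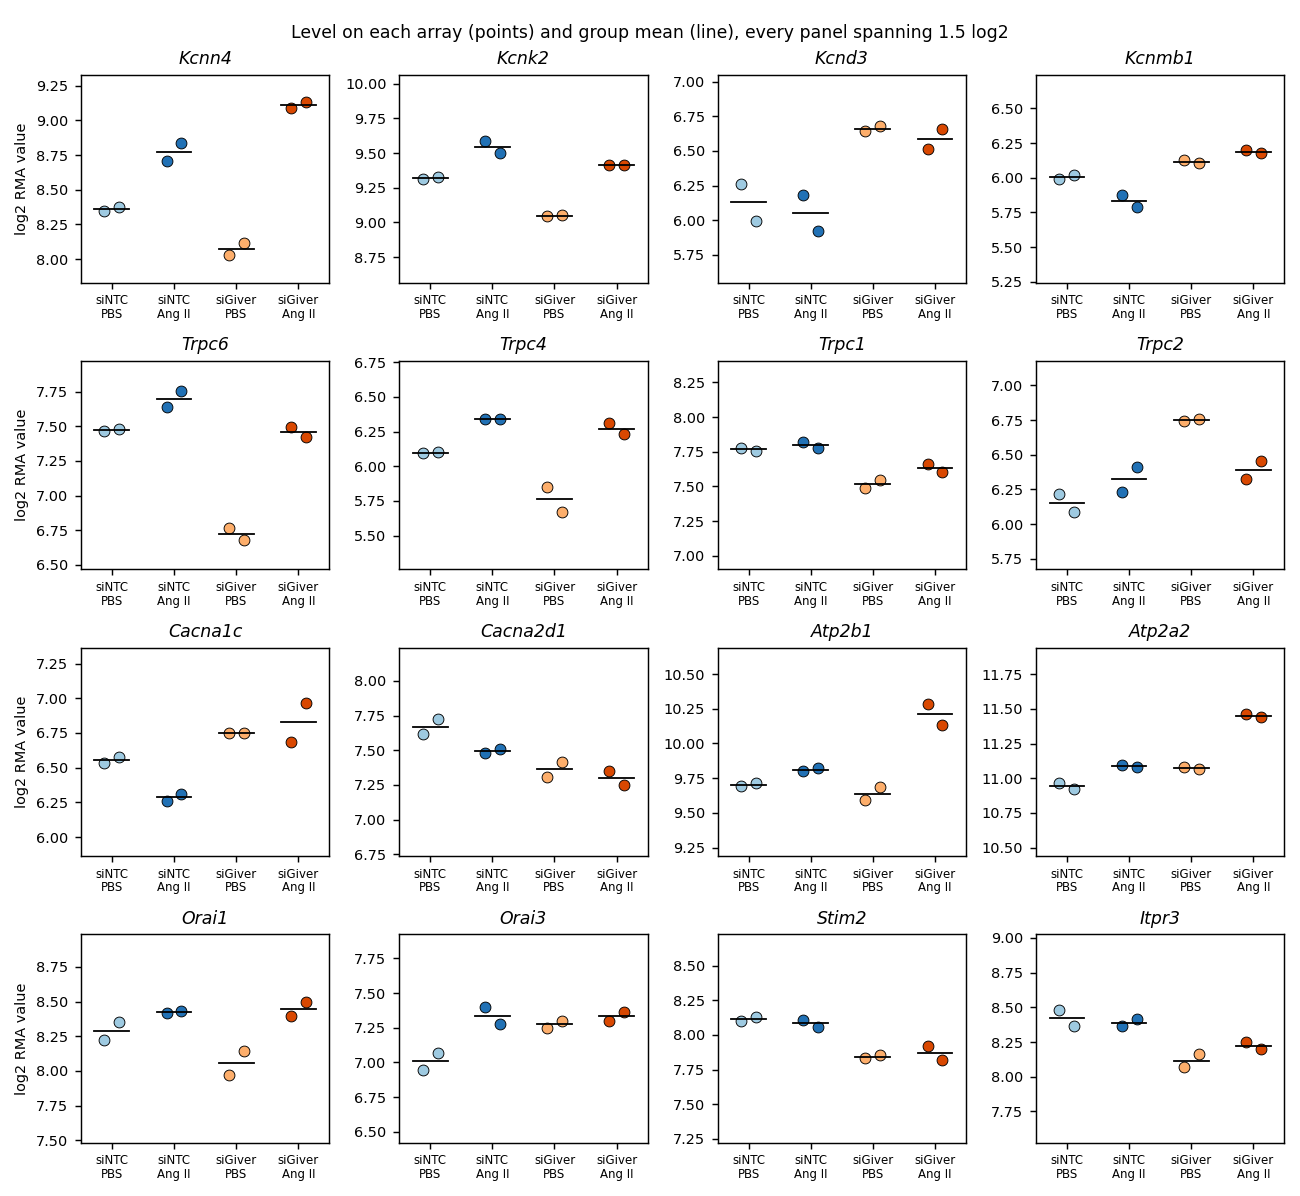
Log2 RMA value of 16 members on each of the 8 arrays, with points for arrays and a line for the mean of 2; every panel spans the same 1.5 log2. In the Trpc6 panel the siGiver PBS arrays (6.76 and 6.68) sit below all others, and in the Atp2b1 panel the siGiver Ang II arrays (10.28 and 10.13) sit above all others.

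TRP channels let in calcium and sodium, and TRPC members open downstream of Gq-coupled receptors. Trpc6, a diacylglycerol-activated channel of arterial muscle, stood at 7.46 and 7.48 on siNTC PBS arrays, 7.64 and 7.76 on siNTC Ang II arrays, 6.76 and 6.68 on siGiver PBS arrays and 7.49 and 7.42 on siGiver Ang II arrays. The siGiver PBS arrays were the low ones, and the siGiver Ang II arrays reached the level of siNTC cells in PBS. In PBS Trpc6 was lower in siGiver cells, at -0.75 ± 0.057 (adjusted p = 0.000111, 2 arrays per group). With Ang II it rose by 0.73 ± 0.057 in siGiver cells (adjusted p = 0.000194), while in siNTC cells its difference of 0.23 did not pass (adjusted p = 0.0627). The interaction was 0.51 ± 0.081 (adjusted p = 0.0128, but 0.0510 without siNTC PBS replicate 2). With Ang II present Trpc6 was still lower in siGiver cells, at -0.24 (adjusted p = 0.0107), a call lost without siNTC Ang II replicate 2 or siGiver Ang II replicate 2 (adjusted p up to 0.0683).

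Trpc4, another receptor-operated channel, measured 6.09 and 6.10 in siNTC PBS, 6.34 on both siNTC Ang II arrays, 5.85 and 5.67 in siGiver PBS, and 6.31 and 6.23 in siGiver Ang II. As for Trpc6, the siGiver PBS arrays were lowest. It was lower in siGiver cells in PBS (-0.34 ± 0.064, adjusted p = 0.00545) and rose with Ang II in siGiver cells (0.51, adjusted p = 0.00205). Its difference of 0.24 in siNTC cells (adjusted p = 0.0712) and its interaction of 0.27 (adjusted p = 0.138) did not pass, so a difference between the arms was not shown for this gene. Both comparisons in siGiver cells use the same siGiver PBS arrays, so a low value there enters both.

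Trpc1, a TRPC subunit found widely, was lower with siGiver in both treatments. Its values were 7.78 and 7.75 in siNTC PBS against 7.49 and 7.55 in siGiver PBS (-0.25 ± 0.047, adjusted p = 0.00569), and 7.82 and 7.78 against 7.66 and 7.60 with Ang II (-0.16, adjusted p = 0.0246). The call with Ang II was lost without either siNTC Ang II array or siGiver Ang II replicate 2 (adjusted p up to 0.133). Trpv2, a stretch-sensitive channel of arterial muscle, was lower in PBS by -0.33 ± 0.066 (adjusted p = 0.00651), with siNTC arrays at 6.37 and 6.45 and siGiver arrays at 6.08 and 6.07. Trpm4, a calcium-activated cation channel that depolarises the membrane, was lower in PBS (-0.20, adjusted p = 0.0297) and rose with Ang II in siGiver cells (0.22, adjusted p = 0.0388). The difference in PBS was lost without siNTC PBS replicate 1 or either siGiver PBS array (adjusted p up to 0.142), and the rise without any 1 of the 4 siGiver arrays (adjusted p up to 0.172). The other TRP gene lower in PBS was Trpv5, an epithelial calcium channel.

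Some TRP symbols went the other way. Trpc2, a channel known from vomeronasal neurons, stood at 6.22 and 6.09 in siNTC PBS and at 6.74 and 6.76 in siGiver PBS, a difference of 0.60 ± 0.077 (adjusted p = 0.000937). With Ang II it fell by 0.36 on the log2 scale in siGiver cells (adjusted p = 0.0194), and its interaction was -0.53 ± 0.11 (adjusted p = 0.0312). The fall was lost without either siGiver PBS array or siGiver Ang II replicate 1 (adjusted p up to 0.0996), and the interaction in 6 of 8 leave-one-out fits (adjusted p up to 0.0958), with only siNTC Ang II replicate 1 or siGiver Ang II replicate 2 dispensable. With the mean of all Trpc2 probe sets neither passed, at -0.097 for the fall (adjusted p = 0.401) and -0.13 for the interaction (adjusted p = 0.523), while the difference in PBS passed at 0.30 (adjusted p = 0.0172). Trpc4ap was higher in siGiver cells in PBS (0.18, adjusted p = 0.025) and with Ang II (0.24, adjusted p = 0.00582), the first call being lost without siNTC PBS replicate 1 or either siGiver PBS array (adjusted p up to 0.11). Trpm7, a channel fused to a kinase, had differences from -0.27 to 0.00 in the 4 pairwise comparisons and passed in none, with siNTC Ang II arrays of 9.78 and 9.50. Trpm1 and Trpv6 also passed in none. Of the 11 TRP symbols, Trpc4ap included, 2 were higher and 6 lower in siGiver cells in PBS (16.0% and 19.1% of all genes). With Ang II, 1 was higher and 2 lower (19.5% and 24.8%). In siGiver cells 3 rose and 1 fell with Ang II (9.11% and 7.17%). In siNTC cells none passed in limma, with 3 at an unadjusted p under 0.05.

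**Figure D3:**
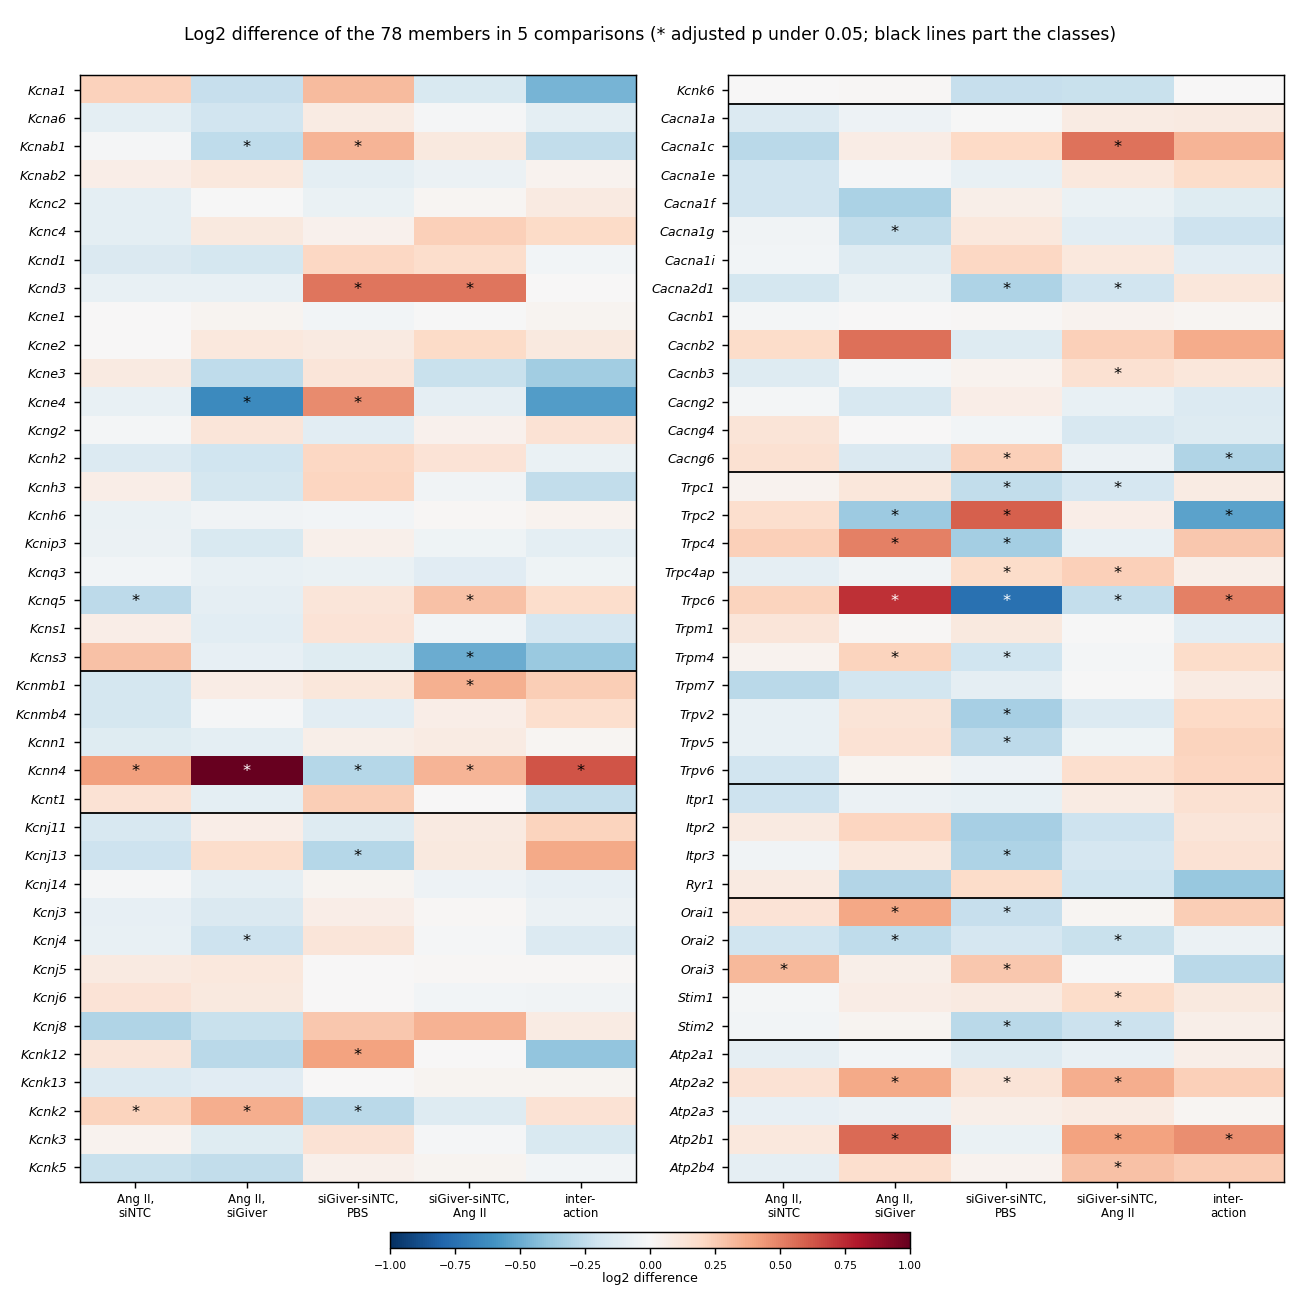
Log2 difference of each of the 78 members (rows, grouped by class) in the 5 comparisons (columns), red for higher and blue for lower, with an asterisk for adjusted p under 0.05. The Trpc6 row runs from -0.75 (siGiver against siNTC in PBS) to 0.73 (Ang II in siGiver cells), and most rows of voltage-gated potassium and inward rectifier channels carry no asterisk.

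Voltage-gated calcium channels consist of a pore-forming alpha subunit with beta, alpha-delta and gamma partners. Cacna1c, the pore of the L-type channel that vasodilator calcium antagonists block, read 6.53 and 6.57 in siNTC PBS, 6.26 and 6.31 in siNTC Ang II, 6.75 on both siGiver PBS arrays, and 6.69 and 6.96 in siGiver Ang II. The siNTC Ang II arrays were the lowest. With Ang II present, Cacna1c was higher in siGiver cells by 0.54 ± 0.083 (1.46-fold, adjusted p = 0.00148). Its other comparisons did not pass, including -0.27 with Ang II in siNTC cells (adjusted p = 0.11) and an interaction of 0.34 (adjusted p = 0.142). A second, dimmer Cacna1c probe set (mean 5.49) did not share this difference, at -0.10 (adjusted p = 0.268 among all probe sets), and the mean of both gave 0.22 (adjusted p = 0.00954).

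Cacna2d1, the alpha-delta partner that brings L-type channels to the membrane, was lower in siGiver cells. It measured 7.62 and 7.72 against 7.31 and 7.42 in PBS (-0.31 ± 0.062, adjusted p = 0.00701) and 7.48 and 7.51 against 7.35 and 7.25 with Ang II (-0.19, adjusted p = 0.0364). The second call was lost without either siNTC Ang II array or siGiver Ang II replicate 2 (adjusted p up to 0.184). Cacnb3, a beta subunit, was higher with siGiver and Ang II by 0.15 (adjusted p = 0.0343), which did not pass without any 1 array of the Ang II groups or of siGiver PBS (adjusted p up to 0.167). The T-type channel gene Cacna1g fell with Ang II in siGiver cells (-0.24, adjusted p = 0.0261), from 6.013 and 5.998 to 5.81 and 5.71, a call lost without either siGiver PBS array or siGiver Ang II replicate 2 (adjusted p up to 0.135). Cacng6, a gamma subunit known from skeletal muscle, was higher in siGiver cells in PBS (0.24 ± 0.042, adjusted p = 0.00377), with an interaction of -0.30 (adjusted p = 0.0273) that was lost when any 1 array was left out (adjusted p up to 0.096). The remaining 8 of 13 Cacn members passed in no comparison. Among these was Cacnb2, at 5.12 and 5.69 on the siGiver Ang II arrays against 4.76 and 4.95 in siGiver PBS, a difference of 0.55 with a wide error (adjusted p = 0.0611), named after its values were seen.

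In store-operated entry, STIM proteins sense calcium in the store and ORAI proteins form the pore. Stim2, the sensor of small store losses, was lower with siGiver in PBS (8.10 and 8.13 against 7.83 and 7.85, -0.27 ± 0.051, adjusted p = 0.00502) and with Ang II (8.11 and 8.06 against 7.92 and 7.82, -0.22, adjusted p = 0.0102). The second call was lost without siNTC Ang II replicate 1 or siGiver Ang II replicate 2 (adjusted p up to 0.0682). Stim1, the main sensor, was higher with siGiver and Ang II by 0.18 (adjusted p = 0.0272), which was lost without any 1 of the 4 Ang II arrays (adjusted p up to 0.127), and its probe sets with means of 7.71 and 6.37 read -0.06 and -0.11 there. Orai1, the pore subunit of the classical pathway, rose with Ang II in siGiver cells from 7.97 and 8.15 to 8.39 and 8.49 (0.38 ± 0.074, adjusted p = 0.013), a call lost without siGiver PBS replicate 1 or siGiver Ang II replicate 2 (adjusted p up to 0.0754). In PBS it was lower in siGiver cells (-0.23, adjusted p = 0.0458), and this was lost in 6 of 8 leave-one-out fits (adjusted p up to 0.235, with a difference of -0.14 at the smallest), with only siNTC PBS replicate 1 or siGiver PBS replicate 2 dispensable.

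The other Orai genes differed in pattern. Orai3, which joins channels gated by store emptying or by arachidonic acid products, rose with Ang II in siNTC cells from 6.95 and 7.07 to 7.40 and 7.28 (0.33 ± 0.063, adjusted p = 0.0266). It already stood at 7.25 and 7.30 in siGiver PBS, 0.27 above siNTC PBS (adjusted p = 0.0141), and at 7.30 and 7.36 in siGiver Ang II, a difference of 0.06 with Ang II (adjusted p = 0.583). The interaction of -0.27 did not pass (adjusted p = 0.126). The Ang II call was lost without siNTC PBS replicate 1 or either siNTC Ang II array (adjusted p up to 0.144), and the PBS call without siNTC PBS replicate 1 or siGiver PBS replicate 2 (adjusted p up to 0.0782). Orai2 fell with Ang II in siGiver cells (-0.26, adjusted p = 0.0268) and was lower with siGiver and Ang II (-0.22, adjusted p = 0.0186). Its first call was lost without either siGiver PBS array or siGiver Ang II replicate 1 (adjusted p up to 0.119), and its second without siNTC Ang II replicate 1 or siGiver Ang II replicate 1 (adjusted p up to 0.107, with a difference of -0.14 at the smallest).

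Among release channels, Itpr3, an inositol trisphosphate receptor, was lower in siGiver cells in PBS, with 8.48 and 8.37 against 8.07 and 8.16 (-0.31 ± 0.058, adjusted p = 0.00542). With Ang II the difference was -0.17 (adjusted p = 0.0516). Itpr1, the isoform prominent in smooth muscle, passed in no comparison and measured 9.83 and 9.77 in siNTC PBS and 9.59 and 9.60 in siNTC Ang II (-0.21, adjusted p = 0.0721). Itpr2 spread widely within siGiver PBS (5.56 and 6.03), and its difference of -0.33 from siNTC cells did not pass (adjusted p = 0.113). Ryr1, the skeletal muscle ryanodine receptor, passed in none, and Ryr2 lay below the filter at 3.92.

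Of 5 calcium pump genes, 2 rose with Ang II in siGiver cells, as did 9.11% of all genes. In siGiver against siNTC cells, 3 were higher with Ang II (19.5% of all genes) and 1 in PBS (16.0%). With Ang II in siNTC cells none passed in limma, with 1 at an unadjusted p under 0.05. The interaction passed for 1 of the 5, Atp2b1. Atp2b1 encodes PMCA1, the widespread calcium pump of the plasma membrane. It read 9.69 and 9.72 in siNTC PBS, 9.80 and 9.82 in siNTC Ang II, 9.59 and 9.68 in siGiver PBS and 10.28 and 10.13 in siGiver Ang II, and the last group lay above all other arrays. Ang II raised it by 0.57 ± 0.061 in siGiver cells (adjusted p = 0.00093), and by a difference of 0.11 that did not pass in siNTC cells (adjusted p = 0.345). With Ang II it was higher in siGiver cells by 0.40 (1.32-fold, adjusted p = 0.00142). The interaction was 0.46 ± 0.086 (adjusted p = 0.0222), a call lost in 6 of 8 leave-one-out fits, all but those without siGiver PBS replicate 2 or siGiver Ang II replicate 2 (adjusted p up to 0.0801). All 3 Atp2b1 probe sets gave it, at 0.46, 0.42 and 0.53 (adjusted p = 0.0336, 0.0204 and 0.0091 among all probe sets). They differed elsewhere, since the one with a mean of 8.60 also rose in siNTC cells (0.24, adjusted p = 0.0391) and the one with a mean of 8.52 was lower in siGiver cells in PBS (-0.21, adjusted p = 0.0152).

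Atp2a2 encodes SERCA2, which refills the sarcoplasmic reticulum. Its values were 10.96 and 10.92 in siNTC PBS, 11.09 and 11.08 in siNTC Ang II, 11.08 and 11.06 in siGiver PBS and 11.46 and 11.44 in siGiver Ang II, again highest in the last group. It rose with Ang II in siGiver cells by 0.38 ± 0.042 (1.30-fold, adjusted p = 0.00114), against 0.15 in siNTC cells (adjusted p = 0.0915), and the interaction of 0.23 did not pass (adjusted p = 0.0642). With Ang II it was higher in siGiver cells by 0.36 ± 0.042 (adjusted p = 0.000391). A small difference in PBS (0.13, adjusted p = 0.0475) was lost when any 1 array was left out (adjusted p up to 0.167). The Atp2a2 probe set with a mean of 8.69 rose too (0.27, adjusted p = 0.0139 among all probe sets) and its interaction passed (0.34, adjusted p = 0.0454). The one with a mean of 8.37 did not pass (0.17, adjusted p = 0.0668), and with the mean of all its probe sets the calls of Atp2a2 were lost. Atp2b4, which encodes the PMCA4 pump, was higher with siGiver and Ang II by 0.29 (adjusted p = 0.0382), with siGiver arrays of 6.03 and 5.76. This call was lost without either siNTC Ang II array, either siGiver PBS array or siGiver Ang II replicate 1 (adjusted p up to 0.202, with a difference of 0.16 at the lowest). The Atp2b4 interaction of 0.26 did not pass (adjusted p = 0.348 among all probe sets). Atp2a1 and Atp2a3 passed in no comparison.

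**Figure D4:**
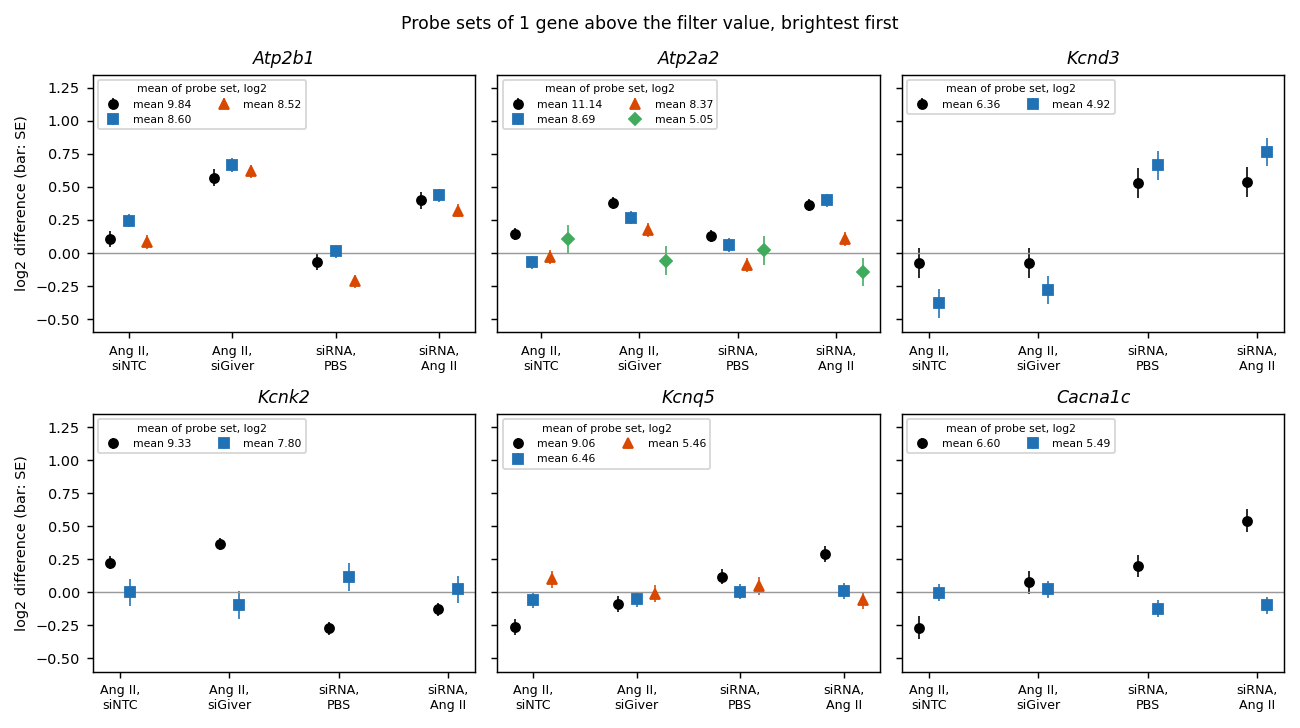
Log2 difference with its SE (bars) in the 4 pairwise comparisons for every probe set above the filter value of 6 members, coloured from the brightest (black). The 3 Atp2b1 probe sets lie together at 0.57 to 0.67 for Ang II in siGiver cells, whereas the dimmer Kcnk2, Kcnq5 and Cacna1c probe sets stay near 0 where the brightest differs.

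Among the 8 members called higher with Ang II in siGiver cells, Trpc6, Trpc4, Atp2b1 and Atp2a2 were picked for a look at their promoters. Trpc6 and Trpc4 rose from low siGiver PBS arrays, and the 2 pump genes rose above all other arrays. The interaction did not pass for Trpc4 or Atp2a2, and shared regulation was not tested. The 250 bases before their annotated starts are shown (RefSeq, build GRCr8, plus strand for all). Capitals mark the GC box GGGCGG, the NFAT core GGAAAA and the CCAAT box on either strand. They lie at chr8:14043966-14044215 for Trpc6, chr2:140501046-140501295 for Trpc4, chr7:35622211-35622460 for Atp2b1 and chr12:39733269-39733518 for Atp2a2.
Trpc6: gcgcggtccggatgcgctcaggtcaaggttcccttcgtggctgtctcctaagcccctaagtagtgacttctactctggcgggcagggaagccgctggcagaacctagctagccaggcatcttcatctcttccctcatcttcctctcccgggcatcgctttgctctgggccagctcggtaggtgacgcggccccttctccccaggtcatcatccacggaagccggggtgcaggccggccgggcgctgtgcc
Trpc4: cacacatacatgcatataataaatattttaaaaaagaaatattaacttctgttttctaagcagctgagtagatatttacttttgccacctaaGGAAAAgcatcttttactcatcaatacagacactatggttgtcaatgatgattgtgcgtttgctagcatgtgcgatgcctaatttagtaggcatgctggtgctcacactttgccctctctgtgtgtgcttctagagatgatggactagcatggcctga
Atp2b1: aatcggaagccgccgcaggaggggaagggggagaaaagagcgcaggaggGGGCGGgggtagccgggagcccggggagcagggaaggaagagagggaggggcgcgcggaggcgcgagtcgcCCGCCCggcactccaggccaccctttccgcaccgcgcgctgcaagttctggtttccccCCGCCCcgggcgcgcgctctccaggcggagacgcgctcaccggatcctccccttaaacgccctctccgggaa
Atp2a2: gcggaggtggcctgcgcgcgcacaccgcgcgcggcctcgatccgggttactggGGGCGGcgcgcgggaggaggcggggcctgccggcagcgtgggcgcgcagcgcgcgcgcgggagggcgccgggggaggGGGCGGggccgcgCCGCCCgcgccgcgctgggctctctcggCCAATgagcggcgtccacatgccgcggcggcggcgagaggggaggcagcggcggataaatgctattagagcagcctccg

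The pump promoters were rich in G and C (72.8% for Atp2b1, 80.0% for Atp2a2), with 3 GC boxes each and a CCAAT box in Atp2a2. The Trpc4 stretch was 38.0% G and C and held 1 NFAT core, while the Trpc6 stretch (64.4%) held none of these motifs. The table covers 59 members and 7 of the 8 that rose in siGiver cells; Kcnn4 is not in it. A GC box was found in 55.93% of those members and 33.54% of the 27457 genes in the table, and in 4 of the 7 (Atp2a2, Atp2b1, Orai1 and Trpm4). A CCAAT box was found in 28.81% of members and 36.13% of all genes. The members had passed the brightness filter and the genes in the table were not filtered, so the shares are not alike. No difference between them was tested. The NFAT core was found in 20.34% of members, 22.79% of all genes and, among the 7, in Kcnk2 and Trpc4. None of the 7 held the AP-1 site TGANTCA (1.69% of members and 6.99% of all genes) on either strand of this window. Nor did they hold the cAMP response element TGACGTCA (0.0% and 1.78%) or a CArG box (0.0% and 1.62%). These are matches of letters and not measured binding.

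Potassium channels were led by Kcnn4, the calcium-activated intermediate-conductance channel known from proliferating smooth muscle cells. Its values were 8.35 and 8.38 in siNTC PBS, 8.71 and 8.84 in siNTC Ang II, 8.03 and 8.12 in siGiver PBS, and 9.09 and 9.13 in siGiver Ang II. No 2 groups overlapped, and the siGiver groups were both the lowest and the highest. Ang II raised Kcnn4 by 0.41 ± 0.059 in siNTC cells (1.33-fold, adjusted p = 0.00831) and by 1.04 ± 0.059 in siGiver cells (2.05-fold, adjusted p = 4.21e-05). The interaction was 0.63 ± 0.084 (adjusted p = 0.0063) and passed in all 8 leave-one-out fits (adjusted p up to 0.033). In PBS it was lower in siGiver cells (-0.29, adjusted p = 0.00761) and with Ang II higher (0.34, adjusted p = 0.00278), the only member called in opposite directions by the siRNA comparisons. The rise in siNTC cells was lost without siNTC PBS replicate 1 or siNTC Ang II replicate 2 (adjusted p up to 0.066), and the difference in PBS without siGiver PBS replicate 1 (adjusted p = 0.051).

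**Figure D5:**
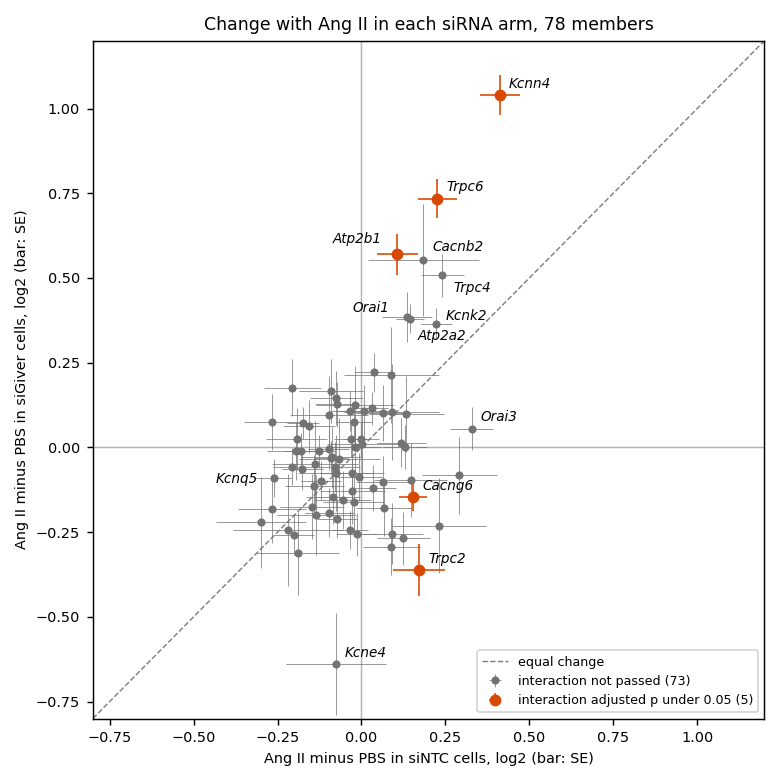
Log2 change with Ang II in siNTC cells (x axis) against that in siGiver cells (y axis) for the 78 members, with SE bars; the dashed line marks equal change and orange marks the 5 members whose interaction passed. Kcnn4 lies at 0.41 and 1.04, Trpc6 at 0.23 and 0.73 and Atp2b1 at 0.11 and 0.57, all above the line, with Trpc2 and Cacng6 below it.

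Large-conductance BK channels pair the pore Kcnma1 with the smooth muscle beta subunit Kcnmb1, which raises their calcium sensitivity. Kcnmb1 stood at 5.99 and 6.02 in siNTC PBS, 5.88 and 5.79 in siNTC Ang II, 6.13 and 6.10 in siGiver PBS and 6.20 and 6.18 in siGiver Ang II. Both siGiver groups lay above both siNTC groups, and the difference passed with Ang II (0.36 ± 0.048, adjusted p = 0.000771) and not in PBS (0.11, adjusted p = 0.109). Kcnma1 lay below the filter, with a mean of 3.74, and was not tested with the members. In a limma fit without the filter it read 0.32 for siGiver in PBS (adjusted p = 0.0434) and 0.09 with Ang II (adjusted p = 0.522). Both rest on dim values. Kcnmb4 and Kcnn1 passed in no comparison. The sodium-activated Kcnt1 did not pass by its brightest probe set (mean 5.81), but its dimmer ones differed from it. With siGiver and Ang II, the brightest read 0.0027, and those with means of 5.43 and 5.35 read -0.59 and -0.61 (adjusted p = 0.000787 and 0.00304 among all probe sets). The one with a mean of 5.43 also rose with Ang II in siNTC cells (0.52, adjusted p = 0.0112) and was lower in siGiver cells in PBS (-0.24, adjusted p = 0.0479), where the brightest read 0.24 (adjusted p = 0.141).

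Of 14 inward rectifier and tandem-pore channels, 10 passed in no comparison. Kcnk2 encodes TREK-1, a leak channel opened by stretch and lipids. It read 9.32 and 9.33 in siNTC PBS, 9.59 and 9.50 in siNTC Ang II, 9.05 on both siGiver PBS arrays, and 9.41 and 9.42 in siGiver Ang II, with no overlap between groups. Ang II raised it in siGiver cells (0.37 ± 0.046, adjusted p = 0.00205) and in siNTC cells (0.22, adjusted p = 0.0346), the second call being lost when any 1 array was left out (adjusted p up to 0.151). In PBS it was lower in siGiver cells (-0.27, adjusted p = 0.0034). A second Kcnk2 probe set (mean 7.80) showed none of these, at -0.09 for Ang II in siGiver cells and 0.12 for siGiver in PBS (adjusted p = 0.582 and 0.453 among all probe sets). Kcnk2 and Kcnn4 were the members that rose in both siRNA arms, 2 of 3 risers in siNTC and 2 of 8 in siGiver cells. The matching share over all genes is not given here.

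Kcnk12, a tandem-pore subunit, was higher in siGiver cells in PBS (5.30 and 5.14 against 5.69 and 5.55, 0.40 ± 0.079, adjusted p = 0.00648). Kcnj13, an inward rectifier, was lower (-0.28, adjusted p = 0.0346), which was lost without siNTC PBS replicate 2 or either siGiver PBS array (adjusted p up to 0.182). Kcnj4 fell with Ang II in siGiver cells (-0.21, adjusted p = 0.0494), a call lost when any 1 array was left out (adjusted p up to 0.22). Kcnj8, the pore of the vascular ATP-sensitive channel, passed in none. Its siNTC Ang II arrays read 5.35 and 5.80 and its siGiver PBS arrays 6.22 and 6.06, and the largest of its pairwise differences was 0.35 for siGiver with Ang II (adjusted p = 0.0723).

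Voltage-gated potassium channels repolarise the membrane and limit calcium entry. Of 21 subunits, 16 passed in no comparison. Kcnd3, the pore of an A-type current, was higher in siGiver cells in both treatments, at 6.27 and 5.99 against 6.64 and 6.68 in PBS (0.53 ± 0.11, adjusted p = 0.00837) and 6.18 and 5.92 against 6.51 and 6.66 with Ang II (0.53, adjusted p = 0.00623). The PBS call was lost without siNTC PBS replicate 2 (adjusted p = 0.0525). Its dimmer probe set (mean 4.92) gave 0.66 and 0.76 (adjusted p = 0.0036 and 0.0014 among all probe sets), and the interaction was 0.00 ± 0.16 (adjusted p = 0.995).

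Kcnq5, whose channel carries a slow subthreshold current in vascular muscle, fell with Ang II in siNTC cells, from 9.03 and 9.14 to 8.86 and 8.79 (-0.26, adjusted p = 0.0388), a call lost when any 1 array was left out (adjusted p up to 0.191). With Ang II it was higher in siGiver cells (0.29 ± 0.056, adjusted p = 0.00435), where its arrays read 9.12 and 9.10. Its probe sets with means of 6.46 and 5.46 read 0.01 and -0.06 there. Kcns3, a silent modifier subunit, was lower with siGiver and Ang II (5.35 and 5.51 against 4.92 and 4.95, -0.49 ± 0.11, adjusted p = 0.0092), lost without siNTC Ang II replicate 2 (adjusted p = 0.0582).

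The accessory subunit Kcne4, which damps several of these channels, was higher in siGiver cells in PBS (0.47, adjusted p = 0.0435) and fell with Ang II (-0.64 ± 0.15, adjusted p = 0.0273). Its siGiver arrays read 5.82 and 5.83 in PBS and 4.95 and 5.43 with Ang II, so the size of the fall rests on unequal arrays. The PBS call was lost without any array but the siGiver Ang II ones (adjusted p up to 0.203), and the fall without either siGiver PBS array or siGiver Ang II replicate 1 (adjusted p up to 0.104; the fall ran from -0.88 to -0.40). Kcnab1, a cytosolic beta subunit, was higher in siGiver cells in PBS (5.72 and 5.66 against 6.07 and 5.99, 0.34 ± 0.062, adjusted p = 0.00478) and fell with Ang II there (-0.26, adjusted p = 0.031), the fall being lost without any 1 siGiver array (adjusted p up to 0.149). These opposite signs share the siGiver PBS arrays.

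The companion genes of calcium handling were taken from 4 lists. Of 25 exchangers, store proteins and pump regulators tested, 5 were higher and 4 lower in siGiver cells in PBS (16.0% and 19.1% of all genes). With Ang II, 6 were higher and 5 lower (19.5% and 24.8%). Slc8a1, the sodium-calcium exchanger that extrudes calcium beside the PMCA pumps, was higher by 1.04 ± 0.061 in PBS (8.42 and 8.34 against 9.36 and 9.47, 2.05-fold, adjusted p = 4.69e-05) and by 1.14 with Ang II (8.51 and 8.39 against 9.59 on both arrays). With the mean of its probe sets Slc8a1 read 0.75 in both treatments and was called. Nucb1, a calcium-binding Golgi protein, was higher by 0.56 and 0.63, and Sri, sorcin, a modulator of release channels and pumps, was lower by -0.43 and -0.49. Ang II raised 2 of the 25 in siNTC cells (3.96% of all genes), Asph by 0.35 and the SERCA inhibitor Pln by 0.295. In siGiver cells it raised 3 (9.11% of all genes), Jph2 by 0.54, Hspa5 by 0.44 and Asph by 0.28. The interaction passed for Jph2 (0.38), which ties the store to the plasma membrane, and Hspa5 (0.33). Single arrays decided several of these calls. Asph in siNTC cells was lost without siNTC PBS replicate 1 or siNTC Ang II replicate 2 (adjusted p up to 0.0662), Pln without siNTC PBS replicate 1 or either siNTC Ang II array (up to 0.0856), and Asph in siGiver cells without siGiver PBS replicate 1 or either siGiver Ang II array (up to 0.0672). With the mean of their probe sets these calls did not pass either, at 0.044 and 0.10 for Asph in siNTC and siGiver cells and 0.066 for Pln. The interaction of Hspa5 was lost when any 1 array was left out (adjusted p up to 0.125), and that of Jph2 without any array but siNTC Ang II replicate 2 (up to 0.102).

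Of 22 calmodulin, calcineurin and CaM kinase genes, 1 rose and 1 fell with Ang II in siNTC cells (3.96% and 2.17% of all genes). In siGiver cells 4 rose and 2 fell (9.11% and 7.17%). The calcineurin inhibitor gene Rcan1 rose by 1.61 and 2.47, and Rcan2 fell in siNTC cells (-0.40). In siGiver cells Nfatc2, a calcineurin-dependent transcription factor, rose by 0.97 and Camkk2 by 0.38. For these 3 risers the interaction passed, at 0.86 for Rcan1, 0.72 for Nfatc2 and 0.28 for Camkk2, the last lost when any 1 array was left out (adjusted p up to 0.11). The fall of Rcan2 was lost without siNTC PBS replicate 1 or siNTC Ang II replicate 2 (adjusted p up to 0.0586). Of the same 22, 5 were higher and 4 lower in siGiver cells in PBS (16.0% and 19.1% of all genes). Among them were Rcan2 at -0.45, the calcineurin subunit Ppp3cb at 0.35 and Nfat5 at -0.33. With Ang II, 8 were higher and 3 lower (19.5% and 24.8%), with Rcan1 at 0.84, Camkk2 at 0.45 and Mylk at 0.34. With the mean of all its probe sets the Camkk2 difference was -0.042 and its interaction 0.096, and Mylk read 0.24, none of which passed. The rise of Nfatc2 was then 0.47 with an interaction of 0.42, Rcan2 fell by 0.25 in siNTC cells, and Ppp3cb read 0.19 in PBS, all still called.

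Of 17 Gq and phospholipase C genes, none passed in limma with Ang II in siNTC cells (2 at an unadjusted p under 0.05). In siGiver cells 2 of the 17 rose, Itpkc (0.23) and Plcd1 (0.20), against 9.11% of all genes. Of the 17, 3 were higher and 2 lower in siGiver cells in PBS (16.0% and 19.1% of all genes). With Ang II, 4 were higher and 0 lower (19.5% and 24.8%). Of the alpha subunit genes on the list, Gna11 was higher by 0.76 in PBS and 0.72 with Ang II, and Gnaq by 0.42 and 0.64. Prkca was lower in PBS (-0.32), and Plcg1 was higher in PBS (0.14) and with Ang II (0.15). The rise of Itpkc was lost without siGiver PBS replicate 2 or either siGiver Ang II array (adjusted p up to 0.0871), and that of Plcd1 without any array but the siNTC Ang II ones (up to 0.165). In PBS, Gnaq was lost without either siGiver PBS array and Prkca without siNTC PBS replicate 2 or siGiver PBS replicate 2. Plcg1 was lost in PBS when any 1 array was left out (0.12 without siNTC PBS replicate 2). With Ang II it was lost without any 1 of the 4 Ang II arrays. Of 10 mitochondrial uptake genes, 4 were lower in siGiver cells in each treatment and none higher (19.1% of all genes were lower in PBS and 24.8% with Ang II), including Mcur1 (-0.42 and -0.28), Letm1 (-0.15 and -0.21), Mcub in PBS (-0.23) and Smdt1 with Ang II (-0.27). With Ang II the calls of Letm1 and Mcur1 were lost without siNTC Ang II replicate 1 or siGiver Ang II replicate 2 (adjusted p up to 0.06 and 0.0662). In PBS that of Letm1 was lost when any 1 array was left out (up to 0.183), and that of Mcub without siNTC PBS replicate 2 or either siGiver PBS array (up to 0.0836). With the mean of their probe sets neither Mcur1 (-0.18 and -0.16) nor Letm1 (-0.063 and -0.11) passed in either treatment. None of the 10 passed in limma with Ang II, with 1 at an unadjusted p under 0.05 in siNTC cells and 3 in siGiver cells. The medians of that list were -0.16 in PBS and -0.18 with Ang II, beside 0.00 and -0.03 for all genes.

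The filter left out several channels known from smooth muscle. Beside Kcnma1 and Ryr2, Kcnj2 (mean 4.36) and Kcna5 (4.12) lay below it. In a limma fit without the filter Kcnj2 read 0.38 for siGiver in PBS (adjusted p = 0.00649). With Ang II in siGiver cells it read -0.29 (adjusted p = 0.0422). These too rest on dim values, and Kcna5 and Ryr2 passed in no comparison of that fit. Just inside the filter were Kcns1 (4.87) and Kcnk13 (4.91), and just outside Cacna1b (4.80) and Cacng3 (4.75). Over all 78 members the median difference was -0.03 with Ang II in siNTC cells and -0.03 in siGiver cells, 0.03 for siGiver in PBS and 0.00 with Ang II, beside 0.01, -0.03, 0.00 and -0.03 for all genes. The 45 members that passed in no comparison had differences from -0.30 to 0.23 with Ang II in siNTC cells, -0.31 to 0.55 with Ang II in siGiver cells, -0.33 to 0.31 between siRNAs in PBS, -0.22 to 0.35 with Ang II and -0.46 to 0.37 for the interaction. Smaller differences passed for other members, such as 0.13 for Atp2a2 in PBS and 0.15 for Cacnb3 with Ang II.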

How the data were processed

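Total RNA of rat aortic smooth muscle cells was hybridised to 8 Affymetrix arrays. The deposited log2 values were made with RMA, which corrects background, equalises the arrays' distributions and summarises probes, and with Partek, per the submitters' processing notes. The version of either is not given in the sources used here. The array medians were 6.15 to 6.19. Because quantile normalization forces a common distribution, a shift of all genes would not be seen.

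Of 31099 probe sets, 57 controls were removed, and 20826 carried 1 gene symbol, 436 several and 9780 none in the annotation used. Each gene was represented by its brightest probe set, and genes with a mean above the 30th percentile (4.81) were tested. limma 3.58.1 (R 4.3.3) fitted 4 group means to all 8 arrays, with 4 residual and 3.53 prior degrees of freedom, and p-values were adjusted by Benjamini-Hochberg over 11377 genes; the script was tested on simulated data. The number of arrays limits the precision. Python 3.11.15, pandas 2.3.3 and matplotlib 3.10.9 made the summaries and figures.

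The members and lists were chosen with earlier results of these data known. Members named are up to 8 per comparison and direction with the largest difference among those called without overlapping arrays, known smooth muscle channels, up to 3 genes per companion list by p, and a few named for their probe sets or to complete a count. Alternatives varied the filter, the probe set rule, the normalization, the moderation, a replicate block and each array left out. Promoters are from RefSeq (GRCr8). No scan dates or batches were used here.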

Additional observations from a re-analysis of the deposited data

Results flagged for a closer look

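For 5 members the change with Ang II differed between siGiver and siNTC cells by the limma interaction test at an adjusted p under 0.05. The change was larger in siGiver cells for Kcnn4 (interaction 0.63), Trpc6 (0.51) and Atp2b1 (0.46). It was opposite in sign for Trpc2 (interaction -0.53), at 0.17 in siNTC and -0.36 in siGiver cells, and for Cacng6 (-0.30), at 0.15 and -0.15, where the siNTC values did not pass and the siGiver value of Cacng6 did not either. With 2 arrays per group no array could be tested as an outlier of its group. With the mean of its probe sets the Trpc2 interaction was -0.13 and did not pass. Of the 5, Kcnn4 alone passed in all 8 leave-one-out fits.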

How the results depend on the processing

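With 2 arrays per group, many calls rested on single arrays. The members called with Ang II in siNTC cells numbered 4, but 1 with no filter on dim probe sets, 2 with every probe set on its own, 7 with trended and robust moderation, and 0 to 3 when 1 array was left out. With Ang II in siGiver cells they numbered 14, but 9 with the filter at the 50th percentile, and 6 (without siGiver PBS replicate 1) to 13 with 1 array left out. Between siRNAs in PBS there were 22, and 14 (without siGiver PBS replicate 1) to 22 with 1 array left out; with Ang II there were 17, and 10 (without siNTC Ang II replicate 1) to 19. The interaction gave 5, 3 with no filter, and 1 to 5 with 1 array left out. Calls kept in all 8 leave-one-out fits numbered 0 of 4, 6 of 14, 12 of 22, 8 of 17 and 1 of 5. Apart from the replicate block, other alternatives kept these counts within 1.5 times. The cause of these shifts was not tested, apart from the fewer arrays or genes that some settings hold by construction. The share of all genes called under each setting is not given here. The shifts are therefore not shown to be particular to the members.

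Of the genes named, Camkk2 turned in sign with the mean of its probe sets, to -0.14 in PBS and -0.042 with Ang II between siRNAs. No other named value that was called reversed under the alternatives run.

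Deviations of same-numbered arrays correlated at -0.172 to 0.0961 between groups, so the numbers were not taken as pairs. With the replicate block the counts were 2, 15, 18, 17 and 5.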
